A study of Mus musculus with 25 samples.

Results

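The members are the 31 mouse genes whose symbol is Srsf or Hnrnp followed by a short suffix, 11 Srsf and 20 Hnrnp genes, out of 35662 symbol-bearing rows in the RNA table of mouse embryonic stem cells (mESCs) and 24062 rows in that of embryos. All 31 are in both tables, and 3 processed-pseudogene rows with the suffix -ps in the mESC table, none above 16.6 counts, were left out. The families were chosen by measured peak scores: Srsf3 and Hnrnpf lie under 2 of the 3 highest-scoring H3K79me2 peaks of a wild-type (WT) library. Those peak values are therefore given as a description without a test. The rule uses no RNA change, but the members were chosen with earlier results of these data known. SR proteins carry an RNA recognition motif and an arginine- and serine-rich domain, bind exonic enhancers and help the early spliceosome to find splice sites. The heterogeneous nuclear ribonucleoproteins (hnRNPs) coat nascent transcripts and often act at silencers against SR proteins. Many genes of both families hold a poison exon, through which the protein lowers its own mRNA by nonsense-mediated decay. DOT1L is the methyltransferase of histone H3 lysine 79, a mark found over the promoter-proximal part of transcribed genes.

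The study profiled H3K79me2 and H3K79me3 by ChIP in mESCs of strain v6.5, with 2 libraries per mark for WT and 2 for Dot1L knockout (KO) cells, neither treated. RNA was sequenced from 3 WT and 2 Dot1L KO libraries of the same strain. It was also sequenced from pools of 30 to 35 wild-type 8-cell embryos of the cross B6D2F1 x Cast/EiJ, taken 56 hours after fertilization, with 2 pools given the vehicle DMSO and 2 the DOT1L inhibitor SGC0946. The labels do not say which part of Dot1l was deleted, how many KO clones there were, whether libraries came from separate cultures, or the inhibitor dose. The p-values therefore measure the spread between these libraries, which may be technical. In bulk RNA, fewer cells of a type and less RNA per cell cannot be told apart.

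The mESC libraries ranged from 26860527 to 33755064 counts and the embryo libraries from 24950199 to 32479590. Levels are given in CPM, the counts scaled to library size after TMM correction. The 31 members took up 1.43 to 1.46% of the counts in WT, 1.30% and 1.39% in KO, and 1.01 to 1.09% in embryos. Dot1l RNA was at 104.4, 96.8 and 99.1 CPM in WT and at 81.4 and 71.6 CPM in KO cells (edgeR adjusted p = 1.62e-04), and since the deleted part is not known these counts do not check the genotype. The KO peak lists held 16 and 12 peaks for H3K79me2 and 178 and 328 for H3K79me3, against 66834 and 64084, and 19800 and 7338, in WT. The mESC markers Pou5f1, Sox2, Nanog, Zfp42 and Esrrb summed to 2390 to 2430 CPM in WT and 1860 to 1970 CPM in KO, with 3 of 5 called lower. Called higher were 3 of 6 fibroblast or feeder markers (151 to 194 CPM summed in WT, 195 to 242 in KO), 3 of 5 primitive endoderm, 4 of 5 trophectoderm and 2 of 4 mesoderm markers. Summed, the latter lists went from 14.1 to 15.4 CPM in WT to 21.2 to 23.0 in KO, from 36.1 to 39.4 to 55.8 to 59.0, and from 4.10 to 4.93 to 7.16 to 7.94. None of these lists had a marker at 0 in every mESC library, and their part in the results on the members was not tested. In embryos the 8-cell markers summed to 2150 and 2160 CPM with DMSO against 1610 and 1920 with SGC0946, while cumulus markers reached at most 1.24 CPM, with Fshr and Inha at 0, and fibroblast markers at most 2.86 CPM, with Col3a1 and Lum at 0. None of the embryo marker genes was called.

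The DNA just before the start of 4 members is shown because 2 of them, Srsf3 and Hnrnpf, carry the top peaks and the others, Hnrnph2 and Srsf2, had the largest fall of an hnRNP and of an SR gene in KO cells. The sequences are RefSeq's for GRCm38.p6, the build that is also called mm10, and give the 250 bases before the start on the gene's strand. Capitals mark the CCAAT box, the GC box GGGCGG, the TATA sequence TATAAA, the E-box CACGTG and 3 further motifs, on either strand, and neighbouring matches run together where they touch or overlap. The windows lie at chr17:29032410-29032659 (plus strand), chr6:117907554-117907803 (plus, the window of Hnrnpf that an H3K79me2 region covers), chrX:134600929-134601178 (plus) and chr11:116853095-116853344 (minus).
Srsf3: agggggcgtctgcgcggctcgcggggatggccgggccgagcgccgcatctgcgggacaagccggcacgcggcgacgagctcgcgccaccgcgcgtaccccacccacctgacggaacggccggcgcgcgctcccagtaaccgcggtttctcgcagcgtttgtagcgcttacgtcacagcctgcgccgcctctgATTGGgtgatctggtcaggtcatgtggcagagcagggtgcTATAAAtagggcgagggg
Hnrnpf: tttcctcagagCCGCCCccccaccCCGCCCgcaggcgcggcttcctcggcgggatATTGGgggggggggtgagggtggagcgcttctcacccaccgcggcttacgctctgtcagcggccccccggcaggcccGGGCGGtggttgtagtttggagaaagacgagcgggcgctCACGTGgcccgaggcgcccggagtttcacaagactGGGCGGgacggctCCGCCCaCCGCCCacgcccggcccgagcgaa
Hnrnph2: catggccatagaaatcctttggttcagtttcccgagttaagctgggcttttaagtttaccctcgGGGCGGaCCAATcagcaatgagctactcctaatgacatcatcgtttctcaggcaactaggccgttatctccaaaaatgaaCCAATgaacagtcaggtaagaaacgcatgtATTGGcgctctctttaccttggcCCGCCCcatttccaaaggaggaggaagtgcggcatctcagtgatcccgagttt
Srsf2: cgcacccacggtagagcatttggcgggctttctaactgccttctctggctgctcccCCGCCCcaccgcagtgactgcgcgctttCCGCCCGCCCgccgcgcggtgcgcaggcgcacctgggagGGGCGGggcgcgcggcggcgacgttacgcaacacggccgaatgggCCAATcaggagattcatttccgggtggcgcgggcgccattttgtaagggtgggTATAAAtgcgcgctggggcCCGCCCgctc

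Srsf3 and Srsf2 hold both a CCAAT box and TATAAA within this window, and Srsf3 has no GGGCGG, which Hnrnpf, Hnrnph2 and Srsf2 have. RefSeq entries were found for 29 members, with 41 start windows in all, and Hnrnpll and Hnrnpul2 are named only. GGGCGG stood in 80.5% of the members' windows (33 of 41, from 24 members), against 32.7% of all 32851 windows and 62.8% of the 3786 windows of the 20% of tested genes with the highest WT level. CCAAT stood in 48.8% of members' windows, 33.8% of all and 37.0% of the highly expressed genes' windows. CCGGAAGT, the core bound by ETS factors, stood in 14.6% (Hnrnpd, Hnrnpf, Srsf11, Srsf4 and Srsf5), 2.88% and 6.08%. TATAAA stood in 7.32%, for Srsf2, Srsf3 and Hnrnpm, against 12.4% and 5.97%. CACGTG was in 7.32%, 6.02% and 9.72%, AAGATGGC, the YY1 core, in 2.44% (Hnrnpul1), 1.56% and 2.43%, and CTCGCGAG in 4.88% (Srsf4), 0.761% and 2.85%. CG dinucleotides numbered 23 per window in the median over members, 6 over all windows and 18 over highly expressed genes. Windows of the same gene can overlap, so a site can count more than once, as in Srsf4 for CTCGCGAG and CCGGAAGT. A match is a run of letters and not a shown binding site.

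H3K79me2 lay over nearly every SR and hnRNP gene in WT mESCs. A region is a stretch of peaks found in both WT lists, and such a region overlapped the body of 30 of 31 members against 42.5% of the 18589 tested genes with a RefSeq position. As H3K79me2 peaks entered the choice of the families, the shares of this mark are a description. The 28 members among the 20% of genes with the highest WT level were all marked, as were 93.2% of all genes in that group, which is close to the members' share. Srsf12, the least expressed member with 5.08, 5.32 and 4.52 CPM in WT, was the one without a region and had no peak of either mark in any list. No peak lay over a member in any of the 4 KO lists.

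H3K79me3, the more restricted mark, overlapped 26 of 31 members against 10.3% of genes. Of the 28 highly expressed members 26 were marked, against 33.8% of all highly expressed genes. Within that group the genes were not matched for level, and the unmarked Srsf4 and Hnrnpll had the lowest WT levels of the 28. As 99.3% of the H3K79me3-covered bases over members lay inside H3K79me2, these shares too are a description. The 5 members without it were Hnrnph3, Hnrnpll, Srsf4, Srsf9 and Srsf12. Hnrnph3 (a best −log10 q of 6.26), Srsf9 (3.74) and Hnrnpll (1.33) had a peak in replicate 1 alone, and Srsf4 (4.20) in replicate 2 alone. The lists differ in length, with 19800 and 7338 peaks, and taken singly they marked 29 and 27 members.

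The modification covered a large part of these genes. H3K79me2 covered at least 50% of the gene body in 23 members (74.2%), against 9.77% of all tested genes and 27.4% of highly expressed ones, and its median share was 61.7% in members and 30.4% in highly expressed genes. Members are shorter, at a median of 11270 bp against 32070 bp, and in absolute length their coverage was 5649 bp in the median against 7236 bp, so the marked stretch itself was not longer. The highest shares were in Hnrnpdl (88.6%), Hnrnph2 (88.3%), Hnrnpa0 (84.9%), Srsf5 (84.2%) and Srsf3 (82.5%), and the lowest of the marked members in Hnrnpul1 (19%), Hnrnpll (25.7%) and Hnrnpul2 (29.0%). H3K79me3 covered at least 50% of one member, Srsf2, at 73.9%.

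**Figure D1:**
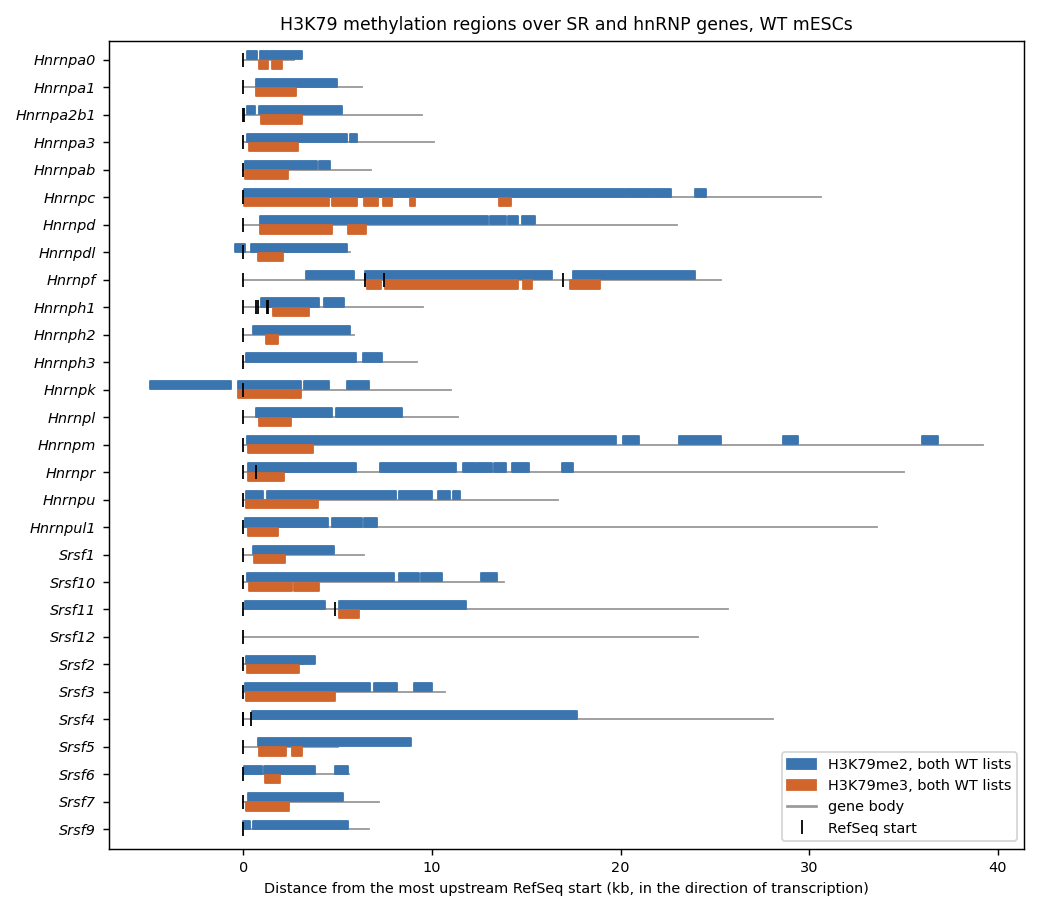
Regions of both WT lists along each SR and hnRNP gene, in kb from the most upstream RefSeq start in the direction of transcription (H3K79me2 in blue, H3K79me3 in orange, gene body in grey, starts as ticks), for the 29 members with a start entry. In most members the first H3K79me2 bar begins within 1 kb after the start. H3K79me3 bars sit mostly in the front part of the stretch with H3K79me2 bars, while Srsf12 has no bar.

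Both marks mostly began just inside the genes, measured from the most upstream start. The first edge is the most upstream edge of the H3K79me2 regions that overlap the gene. It was 0.216 kb after the most upstream start in the median of 28 members. In 25 of these it lay 0 to 1 kb after that start. Of highly expressed genes, 77.1% had their first edge in that interval, and their median was 0.316 kb. The most upstream start was covered in Hnrnpdl and Hnrnpk, and a start further downstream in Hnrnpf, Hnrnph1 and Hnrnpr. H3K79me2 covered bases of a promoter window, the 250 bases before a start, in Hnrnpdl, Hnrnpf, Hnrnph1, Hnrnpk, Hnrnpr and Srsf11. In Hnrnpk, which overlaps Rmi1 and Mir7-1 in RefSeq, the edge was at −4.92 kb. In Hnrnpf it was at 3.31 kb from the most upstream of 4 listed starts, and the strongest peak of WT replicate 1 began between the next starts, which lie 6.44 and 7.46 kb downstream. H3K79me3 began at 0.561 kb and ended at 2.98 kb, whereas H3K79me2 ended at 6.87 kb (medians of the members marked). In all 25 members with both marks and a start entry H3K79me3 ended first, and 99.3% of the H3K79me3-covered bases over members lay inside H3K79me2.

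The top peaks were those by which the genes were chosen. The peak over Srsf3, an SR protein that also takes part in mRNA export, ran over chr17:29032737-29039387, inside the gene from just behind its start, with 18.7-fold enrichment and a −log10 q of 88.4 (rank 2 of 66834) in WT replicate 1. In replicate 2 it had 18.3-fold enrichment and 73.3 (rank 6 of 64084). The peak over Hnrnpf, which binds runs of G beside splice sites, ran over chr6:117906920-117916481 with 20.6-fold enrichment and 88.1 (rank 3) in replicate 1, and 17.4-fold and 66.9 (rank 12) in replicate 2. Enrichment and q are the authors' values, as given per list. H3K79me2 regions covered 18956 bp of Hnrnpf and 8839 bp of Srsf3, and the longest coverage among the other members was in Hnrnpm (24201 bp), Hnrnpc (23113 bp) and Srsf4 (17183 bp). The median best −log10 q over members was 32.2 and 24.9 in the 2 libraries, against 17.7 and 15.7 over highly expressed genes.

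For H3K79me3 the highest enrichments in either WT library were in Srsf3, in Hnrnpu, a nuclear matrix-associated hnRNP, and in Hnrnpc, which binds uridine tracts. Srsf3 had 16.2-fold and 9.19-fold enrichment in replicates 1 and 2, Hnrnpu 13.4-fold and 10.9-fold, and Hnrnpc 11.0-fold and 12.6-fold. Over members the median best −log10 q was 16.5 and 11.3, and 4.02 and 0 over highly expressed genes.

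**Figure D2:**
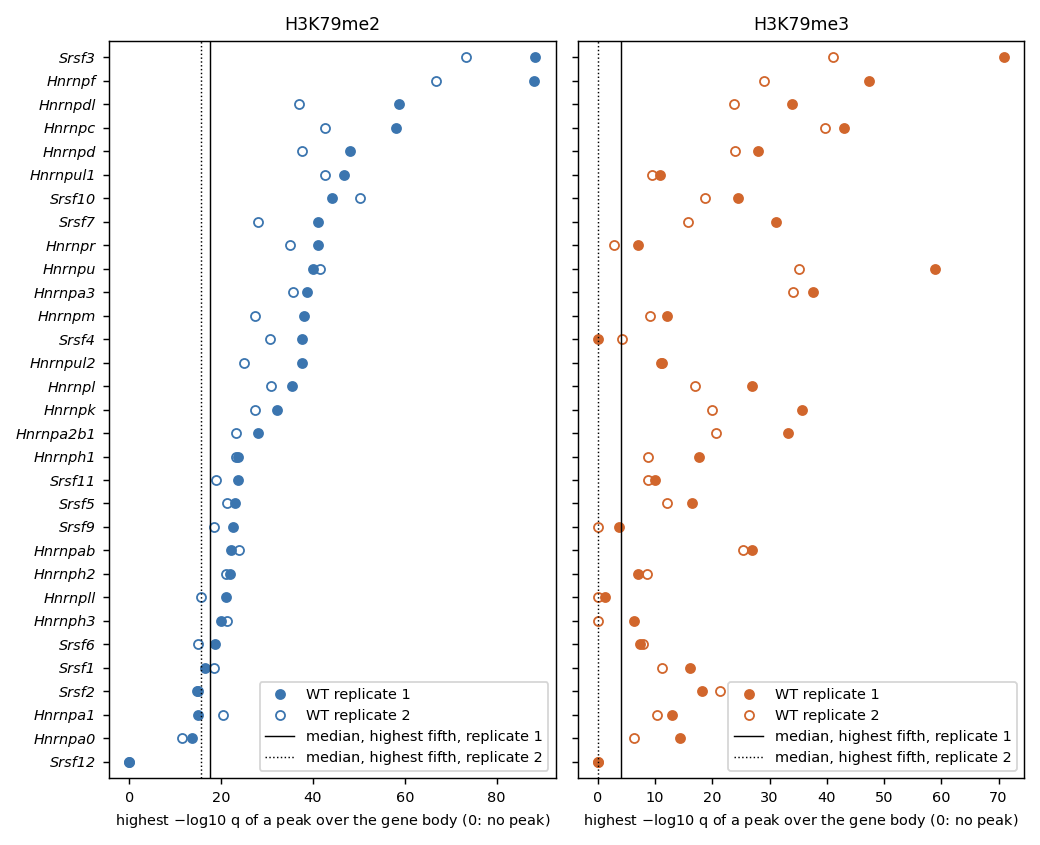
Best −log10 q of any peak over each member, for H3K79me2 (left) and H3K79me3 (right), with filled points for WT replicate 1, open points for replicate 2, and lines at the medians of the 20% of genes with the highest WT level. Srsf3 and Hnrnpf are the highest in H3K79me2 at 88.4 and 88.1 in replicate 1, and Srsf12 is at 0.

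Many SR and hnRNP transcripts were lower in Dot1L KO cells, by small amounts. Of 31 members, 20 were called (edgeR quasi-likelihood test, Benjamini-Hochberg adjusted p under 0.05 over 19561 genes): 19 lower and 1, Hnrnpul2, higher. Over all tested genes 43.7% were called, 22.3% higher and 21.4% lower, and among the 20% with the highest WT level 12.9% were higher and 45.1% lower, against 61.3% of members lower. The median log2 fold change was −0.15 over members, 0.0020 over all genes and −0.10 over highly expressed genes, which thus shared the members' direction. The groups did not overlap for 28 members (90.3%), against 62.5% of all genes and 74.9% of highly expressed ones. Under upper-quartile scaling, where the median of all genes was 0.067, 13 were lower and 3 higher, with Hnrnph3 and Srsf12 added to Hnrnpul2. The calls of Srsf3, Srsf4, Hnrnpk, Hnrnpa2b1, Hnrnpll and Hnrnpul1 were lost there, at adjusted p-values from 0.0512 to 0.353.

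Among SR genes 6 of 11 (54.5%) were called lower and none higher. Of all tested genes 21.4% were called lower, and of highly expressed ones 45.1%. The change was below 0 in 10 of the 11. Srsf2, whose protein also marks nuclear speckles, had 410.6, 412.3 and 403.7 CPM in WT and 291.1 and 344.1 in KO, a log2 fold change of −0.36 (SE 0.0572, adjusted p = 2.07e-04). Srsf5 had 334.5, 344.4 and 335.3 CPM in WT and 249.5 and 289.9 in KO, a change of −0.33 (SE 0.0544, adjusted p = 3.36e-04). In both, every KO library lay below every WT library, and the gap between the KO libraries was wider than that among WT. Srsf6 (−0.31), Srsf1 (−0.26), a general activator of exon inclusion, and Srsf4 (−0.15) were also called lower. Srsf3 had 693.2, 703.2 and 692.6 CPM in WT and 568.9 and 652.0 in KO, a change of −0.19 (SE 0.0498, adjusted p = 0.00767). Its change was −0.10 without KO replicate 1 and −0.29 without KO replicate 2, and it missed the threshold under upper-quartile scaling (adjusted p = 0.0512). Srsf7, Srsf9, Srsf10 and Srsf11 had changes of −0.11 to −0.12 that did not pass, and Srsf12 had 0.27 at about 5 CPM.

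In the F/H group, which binds G-rich RNA, Hnrnph2 and Hnrnph1 were called lower. These are 2 of 4 genes (50%), near the 45.1% of highly expressed genes. Hnrnph2, on chromosome X, had 196.4, 206.7 and 198.2 CPM in WT and 119.4 and 135.1 in KO, a change of −0.66 (SE 0.0535, adjusted p = 6.04e-07), the largest of any member, whose level fell by 36.5%. Over the 593 tested X-linked genes of at least 1 CPM the median change was −0.65 and 70.7% were called lower, close to the value of Hnrnph2, and the other 30 members are autosomal. Hnrnph1 had 498.8, 521.8 and 509.4 CPM in WT and 367.8 and 406.7 in KO (−0.40, SE 0.0459, adjusted p = 1.54e-05). Hnrnpf had 988.1, 998.4 and 964.4 CPM in WT and 896.4 and 957.0 in KO, which do not overlap, with a change of −0.09 (SE 0.0385, adjusted p = 0.0892). Hnrnph3 was at 0.13 and not called.

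In the A/B and D group 5 of 7 (71.4%) were called lower, against 45.1% of highly expressed genes, and these 5 include abundant members. Hnrnpa1, a splicing repressor that shuttles to the cytoplasm, had 1248, 1319 and 1277 CPM in WT and 975.9 and 1021 in KO (−0.36, SE 0.038, adjusted p = 7.07e-06). Hnrnpab had 906.2, 933.7 and 905.1 CPM in WT and 689.0 and 771.2 in KO (−0.33, SE 0.0459, adjusted p = 8.58e-05). Hnrnpdl (−0.21), Hnrnpa3 (−0.20) and Hnrnpa2b1 (−0.13) were called lower. Hnrnpa0 (−0.11) and Hnrnpd (−0.10), which binds AU-rich elements of unstable mRNAs, did not pass.

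Of the other hnRNPs, Hnrnpl (−0.29), a binder of CA repeats, Hnrnpm (−0.22), Hnrnpk (−0.16), a binder of C-rich RNA, and Hnrnpll (−0.13) fell, the calls of Hnrnpk (adjusted p = 0.0517) and Hnrnpll (adjusted p = 0.277) being lost under upper-quartile scaling. Hnrnpr (0.00) and Hnrnpc (−0.11) did not pass. All 3 of the U group were called, as were 57.9% of highly expressed genes, with Hnrnpu (−0.32) and Hnrnpul1 (−0.11) lower. Hnrnpul2, which takes part in the response to DNA breaks, rose from 244.3, 255.4 and 246.7 CPM to 296.3 and 306.3, a change of 0.28 (SE 0.0396, adjusted p = 9.75e-05), and was called higher under each of the 3 scalings run and with any 1 library left out.

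The size of the fall differed between the KO libraries. In KO replicate 1 the members' median log2 ratio to the WT mean was −0.22, and in replicate 2 it was −0.10, with 29 of 31 members lower in replicate 1, as were 71.4% of highly expressed genes. The calls rest partly on this. The members' median change was −0.11 without KO replicate 1 and −0.23 without KO replicate 2. In all, 15 of the 20 calls held with any 1 library left out, and those of Hnrnpa3, Srsf4, Hnrnpa2b1, Hnrnpll and Hnrnpul1 did not. Against a tested minimum change of 0.5 (log2) Hnrnph2 alone was called.

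**Figure D3:**
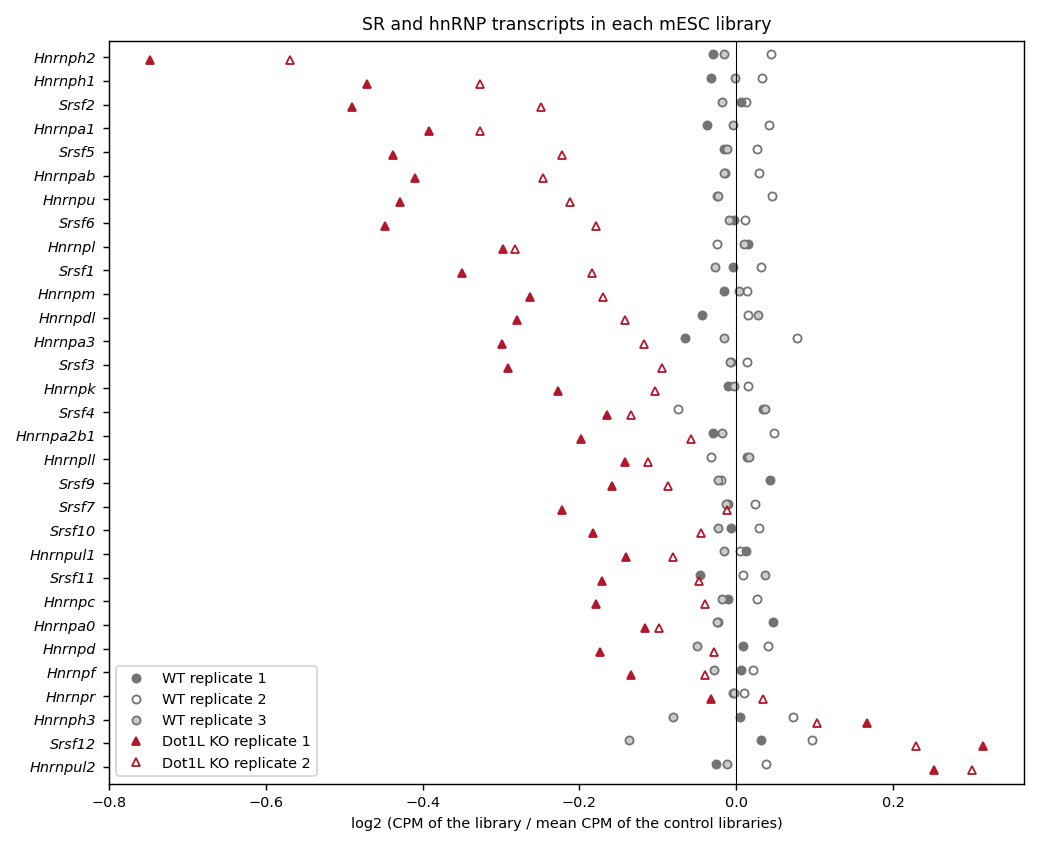
log2 ratio of each library's CPM to the WT mean for the 31 members in mESCs, ordered by fold change from the largest fall (top) to the largest rise, with WT libraries as circles and KO as triangles. Most KO points lie left of the WT points, replicate 1 further left than replicate 2, and Hnrnpul2, Srsf12 and Hnrnph3 lie to the right.

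Many other genes of the splicing machinery were also lower. Of 65 splicing genes that are no SR or hnRNP gene, 43 were called, 36 lower and 7 higher (66.2% called), against 43.7% of all tested genes and 57.9% of highly expressed ones, and the median was −0.14. The share lower was 55.4%, against 21.4% and 45.1%. Under upper-quartile scaling 25 were lower and 12 higher. The X-linked genes of this list, Srpk3, Rbmx, Mbnl3, Nono and Upf3b, were all called lower in the main fit. Of tested X-linked genes of at least 1 CPM, 70.7% were called lower, at a median change of −0.65. Srpk3, a kinase of SR proteins on chromosome X, had 10.5, 9.40 and 9.98 CPM in WT and 4.57 and 4.26 in KO (−1.17, SE 0.107, adjusted p = 1.74e-06). Rbmx, also on X and a relative of hnRNP proteins, had 47.3, 48.8 and 47.1 CPM in WT and 21.95 and 24.99 in KO (−1.02, adjusted p = 3.75e-08), and Mbnl1, a regulator of alternative exons, changed by −0.84 (adjusted p = 7.96e-07). Khdrbs1, an RNA-binding target of signalling kinases, had 163.3, 159.3 and 157.7 CPM in WT and 211.0 and 222.2 in KO (0.44, SE 0.0417, adjusted p = 2.71e-06), and the kinases Clk3 (0.22) and Srpk2 (0.21), which phosphorylate SR proteins, also rose. Called lower were 6 of 8 nonsense-mediated decay genes, 5 of 11 genes of core splice-site recognition and 4 of 8 SR-related genes, with none higher, the last 2 counts being near the share of highly expressed genes. Of 28 other RNA-binding regulators 16 were lower and 5 higher, and of 10 kinases and importins of SR proteins 5 were lower and 2 higher.

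Across the 31 members the H3K79me2 share of the body and the log2 fold change had a Spearman correlation of −0.29 (Pearson −0.49), whereas the covered length in bp and the fold change had one of the opposite sign, 0.31. That of the WT level and the fold change was −0.43. These are descriptions over genes of the same 5 libraries, with the unmarked, little expressed Srsf12 among them. Also among them is the X-linked Hnrnph2, with 88.3% covered and a change of −0.66, close to the median of −0.65 of X-linked genes. Srsf3 and Hnrnpf, with the top peaks, had changes of −0.19 and −0.09, on either side of the members' median.

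In 8-cell embryos given SGC0946, no SR or hnRNP gene was called. Of 30 members tested (Srsf12 had 0 counts in every pool), 0 had an adjusted p under 0.05, as did 0.0% of the 14351 genes tested. An unadjusted p under 0.05 was found for 4 members (13.3%), against 8.15% of all genes and 14.8% of highly expressed ones. DESeq2 called 1 member and limma-voom 0, and without SGC0946 replicate 2 edgeR called Hnrnpul2 (adjusted p = 0.0407) and Srsf1 (adjusted p = 0.0172). Of the 65 other splicing genes edgeR, DESeq2 and limma-voom called 0, with 6 at an unadjusted p under 0.05 in edgeR, a median change of −0.042 and 2 called by edgeR without SGC0946 replicate 2. The median change was −0.065 over members, 0.015 over all genes and −0.088 over the 20% most highly expressed, with 10 members above and 20 (66.7%) below 0. Below 0 were 48.6% of all genes and also 66.7% of highly expressed ones. The groups did not overlap for 16 members (53.3%), against 39.2% of all genes and 48.8% of highly expressed ones. In data simulated with the spread of these pools, 3.17% of changes of 0.5 and 28.6% of changes of 1 (log2) were called. The changed genes were drawn from all tested genes, whereas 26 of the 30 members lie among the 20% most highly expressed. The rates therefore do not give the share missed among members. The intervals of 18 members reached past −0.5 or 0.5, so a missing call does not show that a member was unchanged.

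Hnrnpul2 had the largest positive change of the members, as in mESCs, at 185.5 and 211.3 CPM with DMSO and 288.3 and 263.2 with SGC0946 (0.48, SE 0.136, edgeR adjusted p = 0.372), with an interval of 0.18 to 0.77. DESeq2 called this 1 member (adjusted p = 0.0445), where it called 0.878% of all genes. Hnrnpdl had 271.5 and 243.4 CPM with DMSO and 315.0 and 288.1 with SGC0946 (0.23, adjusted p = 0.718), and Srsf10, often a repressor, 65.5 and 82.4 and 83.6 and 84.5 (0.18, adjusted p = 0.867). In these 3 genes both treated pools lay above both controls, which was a condition for naming them.

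At the other end, Srsf1 had 531.2 and 657.5 CPM with DMSO and 413.7 and 469.3 with SGC0946 (−0.43, SE 0.132, adjusted p = 0.385). Srsf7 had 224.9 and 224.9 CPM and 162.2 and 180.4 (−0.39, SE 0.136, adjusted p = 0.441), and Hnrnph3 9.80 and 16.3 CPM and 8.35 and 8.70 (−0.61, adjusted p = 0.755). All lay lower in both treated pools, again a condition for naming them, and none passed. Srsf2 was at −0.28, Srsf3 at −0.22 (208.3 and 196.5 CPM with DMSO, 167.5 and 180.7 with SGC0946, adjusted p = 0.754) and Hnrnpf at −0.17 (419.6 and 420.9, and 345.8 and 402.3, adjusted p = 0.801). Both treated pools were below both controls for each. The treated pools differed too, since 22 of 30 members were lower in replicate 1 than in replicate 2, as were 65.1% of highly expressed genes.

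**Figure D4:**
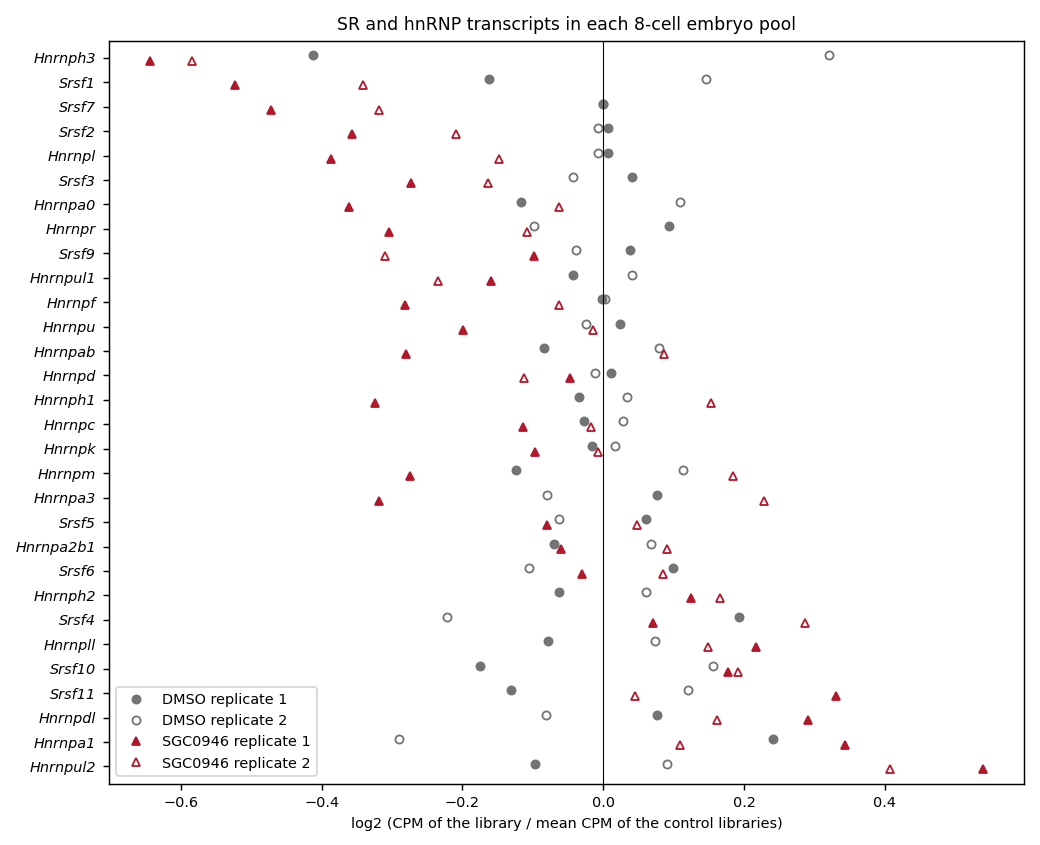
log2 ratio of each pool's CPM to the DMSO mean for the 30 members tested in embryos, ordered by fold change, with DMSO pools as circles and SGC0946 pools as triangles. Srsf1 and Srsf7 have both treated pools to the left and Hnrnpul2 both to the right of the controls, and none was called by edgeR.

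Of 30 members tested in both systems, 18 were below 0 in each, 1 (Hnrnpul2) was above 0 in each and 11 differed in sign. Of the 19 called lower in KO cells, 12 were below 0 in embryos. In embryos 48.6% of all tested genes and 66.7% of highly expressed ones were below 0, the latter close to the members' share. KO and inhibitor are different treatments in different cells and strains, and the difference between them was not tested.

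**Figure D5:**
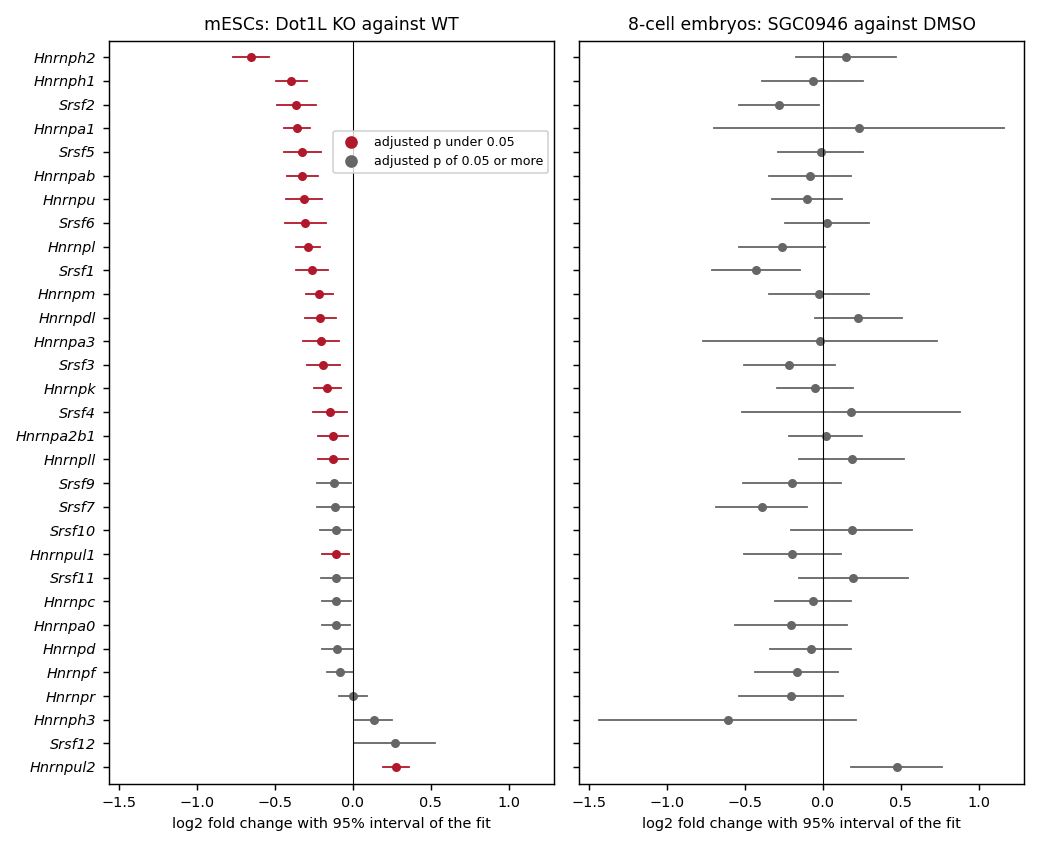
log2 fold change with its 95% interval for each member, Dot1L KO against WT mESCs (left) and SGC0946 against DMSO embryos (right), in the order of the mESC values, red where the adjusted p is under 0.05. The mESC intervals are narrow and mostly below 0, whereas the embryo intervals are wider and 26 of 30 include 0.

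Some levels differ greatly between the tables. Hnrnpa1 had 1248 to 1319 CPM in WT mESCs and 8.07 and 5.58 CPM in DMSO embryos, and Hnrnpa3 1010 to 1115 and 13.7 and 12.3. The tables were made with different tools, both genes have many processed copies in the genome, and how reads shared with a copy were treated is not given, so the levels are not compared between tables. For 23 of the 31 members no mESC count was a whole number, as estimated counts are where reads are shared. Overlapping RefSeq genes lie in 11 members, among them Mfsd11 with Srsf2, Phykpl with Hnrnpab and Cox20 with Hnrnpu.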

How the data were processed

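Each mESC and embryo value is a gene's count in one library. The deposited mESC table holds estimated counts (expected counts), made with kallisto in all 5 libraries, with STAR and HTSeq also named for 4, per the submitters' processing notes. The deposited embryo table holds whole counts from STAR and HTSeq, per the same notes. Peaks came from Bowtie2 and MACS2 on mm10, per those notes, and per the file layout the deposited columns are a score, a fold enrichment (ratio), and −log10 p and −log10 q. Versions are not given in the sources used here. No column was without a sample (0).

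Expected counts were rounded. Genes were kept by edgeR's filterByExpr, scaled by TMM and tested by edgeR's quasi-likelihood F test (version 4.0.16, R 4.3.3). Each system had its own fit, 3 WT against 2 KO and 2 DMSO against 2 SGC0946, and p-values were adjusted by Benjamini-Hochberg over all its genes. Rows without a symbol, 69 in mESCs with at most 0.0163% of counts, were left out. A region joined peaks of one WT list overlapping the other by 1 bp or more. Promoter windows hold the 250 bases before a start. The fits were tested on simulated data. DESeq2 1.42.0 and limma 3.58.1 (voom) were alternatives.

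Values in every library are given for Srsf3, Hnrnpf and the called members with the largest changes, up to 6 per direction, and, where none was called, the 3 largest in each direction with groups that do not overlap. The members, lists and rules were chosen with earlier results of these data known. Replicates of a group differed by more than counting noise (chi-square per degree of freedom of 2.41 or more), so each was used as 1 sample. The input libraries were not used here.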

Additional observations from a re-analysis of the deposited data

How the results depend on the processing

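With DESeq2 size factors, DESeq2, limma-voom, a count minimum of 10, no filter and autosomal genes only, 19 to 27 members were called in mESCs (25 of 30 for autosomal genes only), each with 1 higher. Upper-quartile scaling gave 16, and leaving out 1 library gave 16 to 28 members and 32 to 47 other splicing genes. Against a minimum change of 0.5 on the log2 scale, 1 member and 5 other splicing genes were called, and 1878 genes in all. For the other mESC settings the share of all genes called is not given here. Their counts are therefore no result about the members alone. In embryos DESeq2 called 1 member (126 genes in all) and limma-voom 0 (55 genes). Leaving out 1 pool gave 0 to 2 members, Hnrnpul2 (adjusted p = 0.0407) and Srsf1 (0.0172) without SGC0946 replicate 2, and 0 to 2 other splicing genes; a lone pool is then assumed to vary like the other group. The cause was not tested. The replicate block, run although same-numbered libraries did not deviate together (correlations of 0.0383 and 0.0079 in mESCs, 0.0926 in embryos), called 19 members and 40 other splicing genes in mESCs and 2 members, Hnrnpul2 (0.0484) and Srsf1 (0.0387), and 171 genes in embryos. Without a filter 111 genes and with a minimum of 10 counts 23 genes were called in embryos, and leaving out 1 pool gave 4 to 365, none of which changed a direction among the named members. H3K79me3 over at least 50% of the body was found in 1 member (3.23%), against 0.667% of all genes with a position. The other peak settings gave 23 to 30 members for H3K79me2 and 25 to 29 for H3K79me3. Of these, the 23 had at least 50% covered by H3K79me2, as had 9.77% of all genes. For the rest the share of all genes is not given here. With 2 pools a group, simulated embryo changes of 1 (log2) or less were mostly missed, for genes drawn from all tested genes and not for the members alone.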
